A study of Mus musculus with 4 samples.

Results

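Cells carry a set of cytosolic proteins that recognise RNA or DNA in the wrong place or form, and 10 genes that encode such sensors or the adaptors directly below them are described here. They are the RNA helicase genes Ddx58 (RIG-I), Ifih1 (MDA5) and Dhx58 (LGP2), their mitochondrial adaptor gene Mavs, the Z-form nucleic acid sensor gene Zbp1, the DNA sensor gene Mb21d1 (cGAS) with its adaptor gene Tmem173 (STING), and the DNA-binding Ifi200 family genes Aim2, Ifi204 and Ifi205. Members were taken by gene symbol alone, but with earlier results of these data known. All 10 were found among the 24411 genes of the deposited count files. All 4 libraries came from BV2 cells, an immortalised mouse microglial line, carrying the genotype Pu.1 KO made with CRISPR-Cas9 in the gene of the transcription factor PU.1. Of these, 2 libraries were not treated, and 2 received 10 ng/ml of lipopolysaccharide (LPS), a bacterial cell wall component that activates TLR4. The source name gives 2 h of exposure and the title 4 h, so the time is not settled. The labels name neither the number of clones nor separate cultures, and cells with intact PU.1 were not analysed here, so the comparison is of LPS with no treatment within the knockout line.

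RIG-I and MDA5 bind viral or misplaced double-stranded RNA and pass the signal to MAVS through paired CARD domains. LGP2 shares their helicase but lacks CARDs and modulates them. cGAS makes the second messenger cGAMP when it binds DNA, and STING relays that message. MAVS and STING both recruit the kinase TBK1, which activates IRF3 and leads to interferon beta. ZBP1 engages the kinase RIPK3 and can trigger necroptosis, and AIM2 assembles an inflammasome with the adaptor ASC and caspase-1. Many of these genes are themselves induced by interferon, through promoter elements known as interferon-stimulated response elements (ISREs). TLR4 itself signals from the cell surface and from endosomes.

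Libraries held 3256197 to 4502105 gene counts, so 1 read corresponds to 0.191 to 0.347 CPM (counts scaled to a common TMM-adjusted library size). Reads in no annotated feature made up 51.8% to 53.0% of uniquely placed reads in the untreated and 57.4% to 59.1% in the LPS libraries, and the part of this difference in the results was not tested. Spi1, the PU.1 gene, had 743 to 958 counts in every library and was higher after LPS, at 163 CPM untreated and 275 CPM (log2 fold change 0.75, edgeR adjusted p = 8.8e-10). These reads measure its transcript and say nothing of the edited site. Of the microglial and macrophage markers, 11 of 11 had counts, with a summed level of 2288 to 2381 CPM untreated and 2998 to 3206 CPM after LPS. Mean untreated and LPS levels of its 4 lowest markers were 1.92 and 0.173 CPM for P2ry12, 19.1 and 5.46 for Tmem119, 3.21 and 9.34 for Cx3cr1 and 1.52 and 3.60 for Aif1. Neuronal and epithelial markers were at 0, and astrocyte, oligodendrocyte, fibroblast and lymphocyte lists summed to 1.39 CPM or less. The endothelial list (3 of 4 markers counted, Pecam1 at 0) summed to 22.8 to 23.2 CPM untreated and 34.0 to 49.9 CPM after LPS, and its part in the results was not tested. In bulk RNA, fewer cells of a type and less RNA per cell cannot be told apart.

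By untreated level alone, the sensors were split at the expression filter into a nearly silent group and a group already transcribed. Ddx58, Ifih1, Dhx58, Zbp1 and Ifi205 had 10 counts or fewer in each untreated library and 18 or more in each LPS library. Ifi204, above the filter with only 18 and 19 untreated counts, went from a low level to the highest of the members per kilobase of the longest transcript. Aim2 and Mb21d1 rose by less than 2-fold, while the adaptor genes Mavs and Tmem173 were lower after LPS (log2 fold changes -0.28 and -0.29). In edgeR's quasi-likelihood test at a Benjamini-Hochberg adjusted p below 0.05, 8 members were higher and 2 lower. Over all 9992 genes tested, 26.6% were higher and 25.3% lower (2659 and 2527 genes). When libraries were scaled by size alone, 1379 genes were higher and 4778 lower, with 8 members higher and 2 lower. No member had overlapping groups, and 75.1% of all genes tested had none either (37.5% higher and 37.6% lower). Of all genes tested, 9.47% were called higher by at least 2-fold. The 5 nearly silent members passed the expression filter only through their LPS libraries, as did 174 genes in all, of which 97.1% were called higher. For these members the call therefore adds nothing to the counts themselves. The other 5 members split into 3 higher and 2 lower. Members had a median log2 fold change of 5.53, which becomes 5.01 if the 3 genes never seen untreated are set to their lower bounds. The median of all genes tested was 0.00063. Because the 5 nearly silent members weigh on the first median, it is no result about the sensors as a set. In the other 5 members the log2 fold changes were -0.29 (Tmem173), -0.28 (Mavs), 0.86 (Mb21d1), 0.92 (Aim2) and 5.86 (Ifi204).

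**Figure D1:**
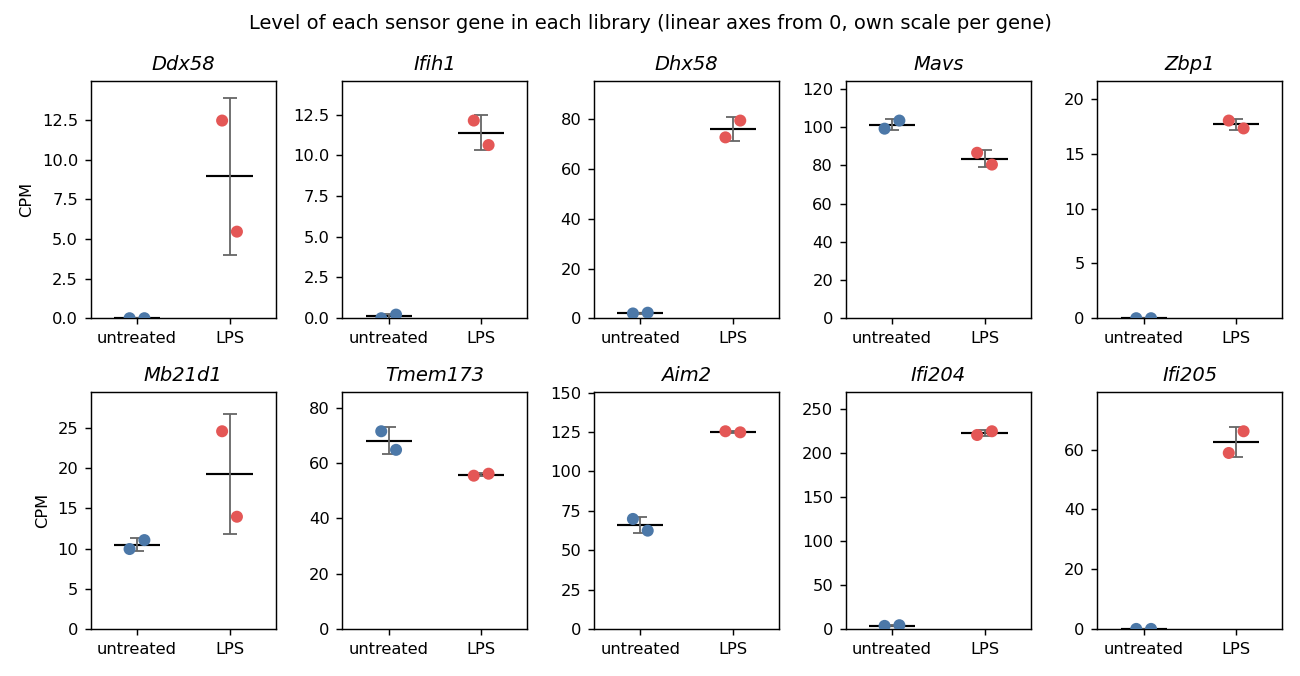
CPM of each of the 10 genes in the 2 untreated and 2 LPS libraries; points are libraries, horizontal lines are means and error bars are SD. Each gene has its own linear axis from 0, so heights compare groups within a gene only; no gene has overlapping groups, and the LPS pair lies far apart for Ddx58 (12.5 and 5.46 CPM) and Mb21d1 (24.6 and 14.0 CPM).

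RefSeq promoter windows (GRCm38.p6, 250 bases before to 50 after the start site) were matched by symbol for 6 of the 10 members, namely Ddx58, Ifih1, Mavs, Mb21d1, Aim2 and Ifi205. The build used for the deposited counts is not settled, so coordinates are those of RefSeq alone. The windows were searched on both strands for the ISRE core (GAAA, any 2 bases, GAAA), which 3.44% of 32851 promoter windows hold, and for a loose form of the NF-kB site (GGGA, any 4 bases, CC), which 20.7% hold. The ISRE core lay in the windows of Ddx58, Ifih1 and Ifi205, the 3 of these 6 genes with 1 untreated count or none in all. It was not matched in those of Mavs, Mb21d1 and Aim2, which had at least 50 counts in every untreated library. The looser NF-kB motif was matched once, in Mb21d1, and the motifs did not overlap in any member. A match is a description of letters and not evidence of binding. The matches are shown as the promoter letters of the members with a window. The other 4 members, among them the nearly silent Dhx58 and Zbp1, were not searched. No relation between match and untreated level is drawn, either from these 6 windows or for the members as a whole. Each is printed 5′ to 3′ on the gene's strand with the matched letters in capitals.
Ddx58 (chr4:40239804-40239833, minus strand, match starting at base 3 of the transcript): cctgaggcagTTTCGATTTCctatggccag
Ifih1 (chr2:62646206-62646235, minus strand, match starting at base 33 of the transcript): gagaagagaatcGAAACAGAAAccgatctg
Ifi205, downstream match (chr1:174031713-174031742, minus strand, starting at base 24 of the transcript): ataccccattTTTCACTTTCtcagttactg
Ifi205, bases before the start site with the upstream match (chr1:174031756-174031909, minus strand): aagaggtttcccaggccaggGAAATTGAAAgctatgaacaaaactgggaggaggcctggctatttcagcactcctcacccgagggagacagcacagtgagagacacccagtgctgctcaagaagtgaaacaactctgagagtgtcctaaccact
Mb21d1, NF-kB motif (chr9:78443298-78443327, minus strand): tggctcagtgGGTGGTTCCCcagctagtgg

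Ddx58, the gene of RIG-I, had 0 counts in both untreated libraries and 36 and 18 after LPS. These are levels of 12.5 and 5.46 CPM (mean 8.97 ± 4.96, SD, n = 2), so the LPS libraries differed from each other more than 2-fold. Against a floor of 3 counts over the untreated group, Ddx58 was at least 28.4-fold higher. Even after LPS it remained one of the least abundant members.

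Ifih1, the gene of MDA5, had 0 and 1 untreated counts and 35 in each LPS library. Its level went from 0 and 0.221 CPM to 12.1 and 10.6 CPM (mean 11.4 ± 1.06, SD, n = 2), and the LPS pair was close together. The ratio of counts was 110 (95% exact interval 19.2 to 4424, counting error only). The width of the interval comes from the single untreated read.

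Dhx58, the gene of LGP2, was the one RIG-I-like receptor gene with reads in both untreated libraries, 10 in each. It rose from 1.91 and 2.21 CPM to 72.8 and 79.5 CPM. The means were 2.06 ± 0.212 and 76.2 ± 4.78 CPM (SD, n = 2 each), a 36.6-fold rise (SE 0.21 on the log2 scale). Per kilobase of the longest GENCODE vM21 transcript, Dhx58 stood at 30.2 and 32.98 CPM per kb after LPS, compared with 3.22 and 1.41 for Ddx58 and 2.22 and 1.94 for Ifih1. The CARD-less receptor thus made up 84.7% and 90.8% of the summed per-kilobase level of the RIG-I-like receptors in the LPS libraries. Its untreated shares were 100% and 95.8%, resting on 10 Dhx58 reads in each library. After LPS the per-kilobase ranges of Ddx58 and Ifih1 overlapped, and neither reached that of Dhx58.

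Mavs, the adaptor on which RIG-I and MDA5 converge, was abundant without treatment and did not follow its receptors upward. It was at 99.3 and 103.5 CPM untreated and at 86.6 and 80.5 CPM after LPS, without overlap. The log2 fold change was -0.28 (95% interval -0.50 to -0.06, edgeR adjusted p = 0.0274). Size-only scaling, under which the median of all genes tested was -0.36, gave -0.64 (edgeR adjusted p = 8.7e-07). The call was lost with DESeq2 (adjusted p = 0.167), after correction for GC content (log2 fold change -0.10, edgeR adjusted p = 0.445) and without untreated replicate 1, untreated replicate 2 or LPS replicate 2 (edgeR adjusted p = 0.108, 0.198 and 0.117). Mavs and Tmem173 have longest transcripts of 53.9% and 51.2% GC. Those of Dhx58 and Zbp1, which rose, have 53.9% and 51%, and the other members lie between 36.1% (Ifi205) and 46.6% (Ddx58). The part of GC content in these calls was not tested.

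Zbp1, which encodes the sensor of Z-form RNA and DNA, had no untreated counts and 52 and 57 after LPS. Its LPS levels of 18.02 and 17.3 CPM (mean 17.7 ± 0.506, SD, n = 2) were nearly equal. It was at least 57.3-fold higher.

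Mb21d1, the gene of the DNA sensor cGAS, was transcribed at a modest level before treatment, 9.94 and 11.1 CPM. After LPS it was at 24.6 and 14.0 CPM. The groups did not overlap, but LPS replicate 2 lay much nearer to the untreated libraries than LPS replicate 1 did. The log2 fold change was 0.86 (SE 0.23, edgeR adjusted p = 0.00204). It fell to 0.41 without LPS replicate 1 (edgeR adjusted p = 0.213) and was 1.23 without LPS replicate 2 (edgeR adjusted p = 3.8e-06), and DESeq2 gave an adjusted p of 0.056.

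Tmem173, the gene of STING, was at 71.5 and 64.8 CPM untreated and 55.4 and 56.2 CPM after LPS. The LPS pair was tight and lay below both untreated libraries. The log2 fold change was -0.29 (95% interval -0.54 to -0.04, edgeR adjusted p = 0.0431). The call was lost under 7 of 14 alternatives, among them DESeq2 (adjusted p = 0.235), GC correction (-0.19 on the log2 scale, edgeR adjusted p = 0.177), a replicate block (edgeR adjusted p = 0.0517) and leaving out any one library (edgeR adjusted p = 0.328 and 0.0753 without untreated replicates 1 and 2, 0.0773 and 0.0717 without LPS replicates 1 and 2). The estimate was negative under all 14 alternatives, from -0.65 with size-only scaling (edgeR adjusted p = 5.5e-06) to -0.19. That of Mavs was too, from -0.64 to -0.10.

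**Figure D2:**
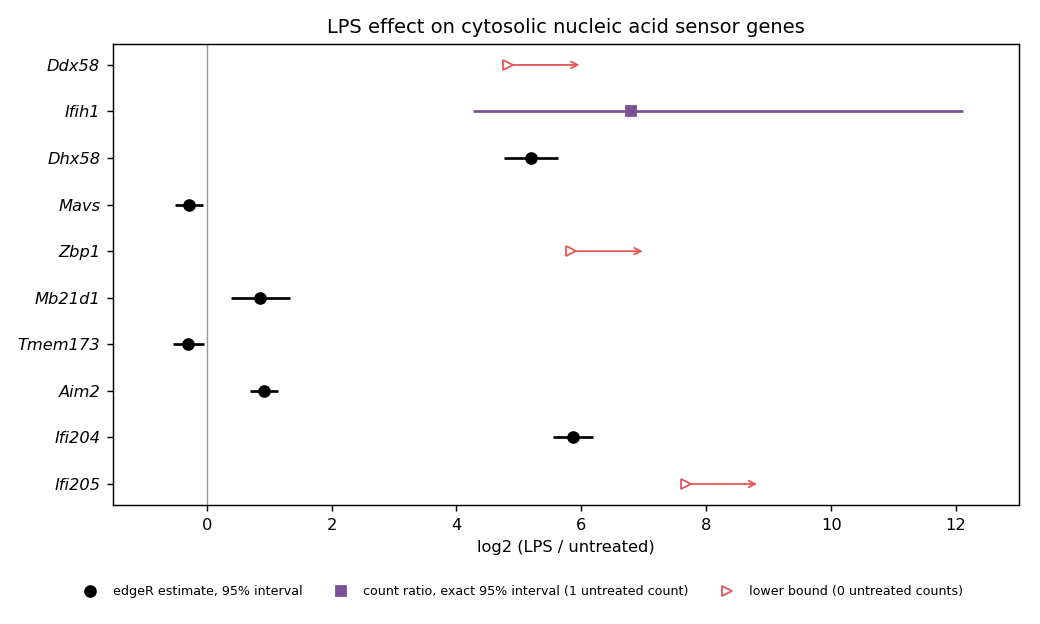
LPS effect on each gene on the log2 scale; circles are edgeR estimates with 95% intervals, the square is the Ifih1 count ratio with its exact 95% interval, and open triangles with arrows are lower bounds for genes without untreated counts. Mavs and Tmem173 lie just below 0, Mb21d1 and Aim2 near 0.9, and the other 6 genes at or above 4.83.

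Aim2, the inflammasome-forming DNA sensor gene, was among the abundant members in both states. Its levels were 69.8 and 62.4 CPM untreated and 125 CPM in both LPS libraries. This was a 1.89-fold rise (log2 fold change 0.92, SE 0.11, edgeR adjusted p = 5.8e-10), and it passed under all 14 alternatives, with log2 fold changes of 0.56 to 1.00. In the annotation Cadm3 overlaps Aim2 on the opposite strand. That strand held 0.421% of the stranded reads at Aim2, and 0.405% and 0.905% at Dhx58 and Mb21d1, which also have an opposite-strand neighbour.

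Ifi204, which encodes the DNA-binding protein p204, was low before treatment and had the highest level per kilobase of the longest transcript after it. With the median transcript length, only 383 bases for Aim2, Aim2 was higher, at 326.7 CPM per kb after LPS against 112.5 for Ifi204. Ifi204 had 18 and 19 untreated counts against 636 and 740, or 3.44 and 4.20 CPM against 220 and 225 CPM. The rise was 58.2-fold (log2 fold change 5.86, SE 0.16, edgeR adjusted p = 5.1e-34). Of the 50-base stretches of its longest transcript, 30.2% also occur in transcripts of other genes, chiefly Ifi211 (listed as Mnda), Mndal and Ifi207 (listed as AI607873). The labels do not say how reads from shared stretches were assigned, so the value for Ifi204 is uncertain to that extent.

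Ifi205, a further Ifi200 family gene, had 0 counts in both untreated libraries and 170 and 218 after LPS, or 58.9 and 66.2 CPM. It was at least 204-fold higher. Only 0.186% of its 50-base stretches occur in another gene's transcript, so shared sequence touches it less than Ifi204. Its printed promoter is the one with an ISRE core on each side of the start site.

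Compared per kilobase of transcript, the order of the sensors changed with LPS. Untreated, Mavs led with 33.2 ± 0.982 CPM per kb, followed by Tmem173 (29.6 ± 2.07) and Aim2 (23.3 ± 1.85), and then with a wide gap by Mb21d1 (2.59 ± 0.194), Ifi204 (1.66 ± 0.234), Dhx58 (0.855 ± 0.0877) and Ifih1 (0.0202). No neighbouring genes in that order overlapped between libraries, apart from Ifih1 and the 3 genes at 0. After LPS the order was Ifi204 (96.9 ± 1.31 CPM per kb), Aim2 (44.1 ± 0.168), Dhx58 (31.6 ± 1.98), Mavs (27.3 ± 1.43), Tmem173 (24.3 ± 0.220), Ifi205 (19.1 ± 1.57), Zbp1 (5.31 ± 0.152), Mb21d1 (4.76 ± 1.86), Ddx58 (2.32 ± 1.28) and Ifih1 (2.08 ± 0.194). Zbp1 and Mb21d1 overlapped in that order, and so did Ddx58 and Ifih1. Mavs, Tmem173 and Aim2 together took most of the summed per-kilobase level untreated, whereas Ifi204 alone took 37.2% and 37.96% of it after LPS. The order depends on the transcript chosen. With the median transcript length 6 members kept their untreated rank and 4 their LPS rank, and Aim2 then came first in both states. That first place rests on a median length of 383 bases for Aim2, against 2839 bases for its longest transcript.

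**Figure D3:**
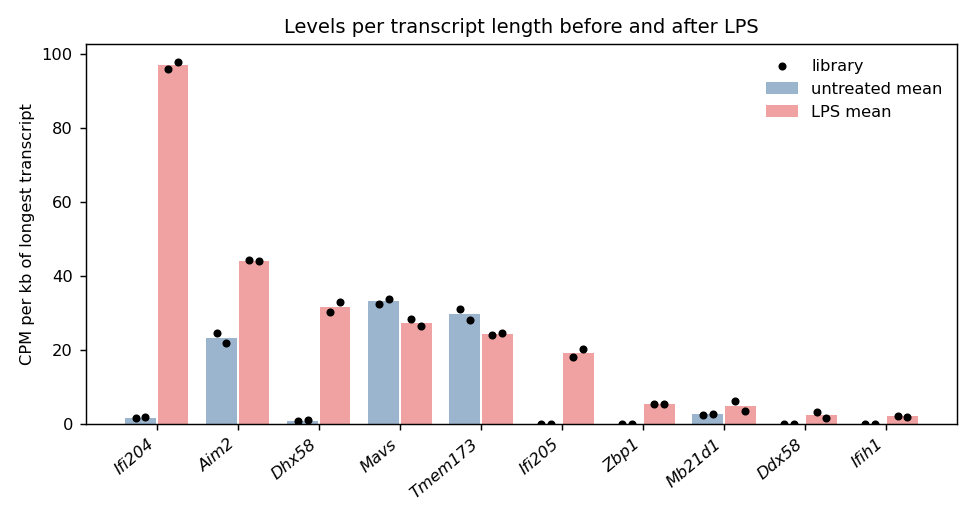
CPM per kilobase of the longest annotated transcript for each gene, in order of the LPS mean; bars are group means from 0 and points are the 2 libraries of each group. Mavs and Tmem173 have the tallest untreated bars and Ifi204 the tallest LPS bar, while Ddx58 and Ifih1 stay lowest after LPS.

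Of 15 tested cofactors and regulators of RIG-I-like receptors, 6 rose and 3 fell, with a median log2 fold change of 0.18. Over all genes tested 26.6% rose and 25.3% fell, so nothing particular to this list is read from its count. Adar, the RNA editing enzyme that marks self RNA, rose 3.84-fold from 42.8 to 165 CPM. Trim25, a ubiquitin ligase gene linked to RIG-I activation, rose 3.36-fold from 58.6 to 196 CPM. Riok3, a kinase gene, rose 3.07-fold, and Zc3hav1, which encodes the zinc finger antiviral protein, rose 1.76-fold. Trim65, named after its value was seen and encoding a ubiquitin ligase for MDA5, fell from 20.6 to 9.12 CPM (log2 fold change -1.15, edgeR adjusted p = 3.4e-05). Under size-only scaling 5 of these genes were lower, and Ywhae, one of the 6 and named for this change, turned to -0.07 on the log2 scale.

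Of 16 tested kinases, adaptors and transcription factors in the relay shared by MAVS and STING, 11 rose and 1 fell (median log2 fold change 0.86), beside 26.6% and 25.3% of all genes tested. Under size-only scaling 9 were higher and 3 lower. Irf7, the interferon regulatory factor of the later interferon wave, had 14 and 11 untreated counts against 645 and 813, a 90.7-fold rise. Ikbke, a kinase gene related to Tbk1, rose 13.8-fold from 19.8 to 276 CPM. Tank, a scaffold of these kinases, rose 2.95-fold and Ikbkg, the regulatory subunit gene of the IKK complex, 2.46-fold. Irf3, named after its value was seen as the factor directly below both adaptors, was at 38.9 and 33.7 CPM on average (log2 fold change -0.21, edgeR adjusted p = 0.234). Ifnb1, the interferon beta gene, also named after its value was seen, had 5 counts in all, each of them after LPS, and could not be tested.

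Among 21 tested regulators of cGAS and STING and enzymes of nucleic acid clearance, 5 rose and 5 fell, and the median log2 fold change was -0.02. These counts are close to the shares of all genes tested, 26.6% higher and 25.3% lower, and are no result about the list. Size-only scaling gave 11 lower, and with DESeq2 or GC correction 2 fell. Usp18, which encodes an interferon-response inhibitor, had 5 counts in each untreated library against 579 and 668 after LPS, 191-fold higher. It too passed the filter only through the LPS libraries. Trex1, the main cytosolic DNA exonuclease gene, rose 7.92-fold from 12.7 to 101 CPM. Trim56, a ubiquitin ligase gene, rose from 4.16 to 38.1 CPM, and Samhd1, a dNTP hydrolase gene, 1.92-fold. Nlrc3, named after its value was seen and encoding an inhibitor of STING signalling, fell from 29.6 to 11.6 CPM (log2 fold change -1.37, edgeR adjusted p = 5.6e-08).

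**Figure D4:**
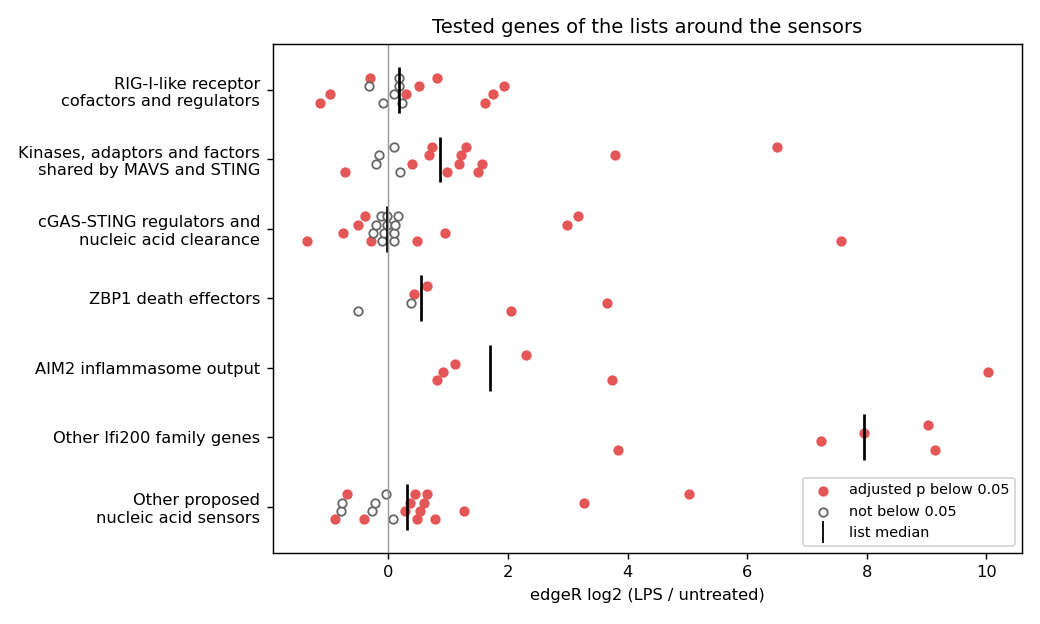
Fitted edgeR log2 fold changes of the tested genes of the 7 lists around the sensors; filled points passed an adjusted p below 0.05, open points did not, and black bars are list medians. Cofactor, clearance and other sensor genes spread on both sides of 0, and the tested Ifi200 genes lie to the right, where values of genes with few untreated counts rest on edgeR's prior count.

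Downstream of the death-linked sensors, one partner of each was at or near 0. Of 6 tested death effectors around ZBP1, 4 rose and none fell (median log2 fold change 0.54), beside 26.6% and 25.3% of all genes tested. Under size-only scaling 2 were higher and 1 lower. Cflar, the caspase-8 regulator gene, rose 12.7-fold from 22.1 to 282 CPM, and Mlkl, the executioner of necroptosis, 4.12-fold from 10.9 to 45.1 CPM. Casp8 rose 1.57-fold and Ripk1 1.34-fold, but neither passed under size-only scaling (edgeR adjusted p = 0.0666 and 0.681), and Ripk1 did not pass with DESeq2 (adjusted p = 0.0665) or without untreated replicate 2 (edgeR adjusted p = 0.167). Ripk3, named after its value was seen as the kinase that ZBP1 engages, had 2 counts over the 4 libraries.

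Of 6 tested genes listed around the AIM2 inflammasome, 6 rose, with a median log2 fold change of 1.71, beside 26.6% of all genes tested. These are transcript levels, and inflammasome activity was not measured. Il1b, the cytokine that caspase-1 matures, had 4 and 3 untreated counts against 2198 and 2673, and passed the expression filter only through the LPS libraries. Casp4 (caspase-11) rose 13.4-fold, Il18 4.91-fold and Casp1 2.17-fold. Pycard, named after its value was seen and encoding the adaptor ASC, had 0 counts on its own strand in any library, which allows a level of up to 0.188 CPM over the 4 libraries, and 12 reads on the opposite strand. The part of annotation or of reads placed at several positions in that 0 was not tested.

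Aim2, Ifi204 and Ifi205 lie with their relatives in one cluster on chromosome 1, in the GENCODE vM21 order Aim2, Pydc4, Pyhin1, Pydc3, AI607873, Ifi204, Mndal, Mnda, Ifi203, Ifi202b and Ifi205. Of the 9 relatives found in the files, 5 could be tested and all 5 rose, beside 26.6% of all genes tested. Of these, 4 had passed the expression filter only through the LPS libraries, as did 174 genes in all, of which 97.1% were called higher. For these 4 the call adds nothing to the counts themselves. AI607873, the one relative with appreciable untreated counts, rose 14.4-fold from 21.5 to 309 CPM. Ifi203 went from 2 and 1 reads to 564 and 616, and its count ratio was 621 (exact 95% interval 212 to 3014). For Mnda, 1 and 0 reads became 190 and 242 (count ratio 682, interval 122 to 26985), although 72.8% of its 50-base stretches are shared with other genes. Mndal went from 2 and 1 reads to 129 and 189 (count ratio 167, interval 56.7 to 815). Mndal and Ifi203 share 27.2% and 10.7% of their 50-base stretches with other genes, and Mndal overlaps both Mnda and Ifi203 on the same strand, so these values too are uncertain. Ifi202b and Pydc3 had no counts, and Pydc4 and BC094916 had 2 and 1, all after LPS. Aim2, at one end of the cluster, was the gene with the highest untreated level per kilobase, 23.3 CPM per kb, and rose 1.89-fold, whereas Ifi205 at the other end had no untreated reads.

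**Figure D5:**
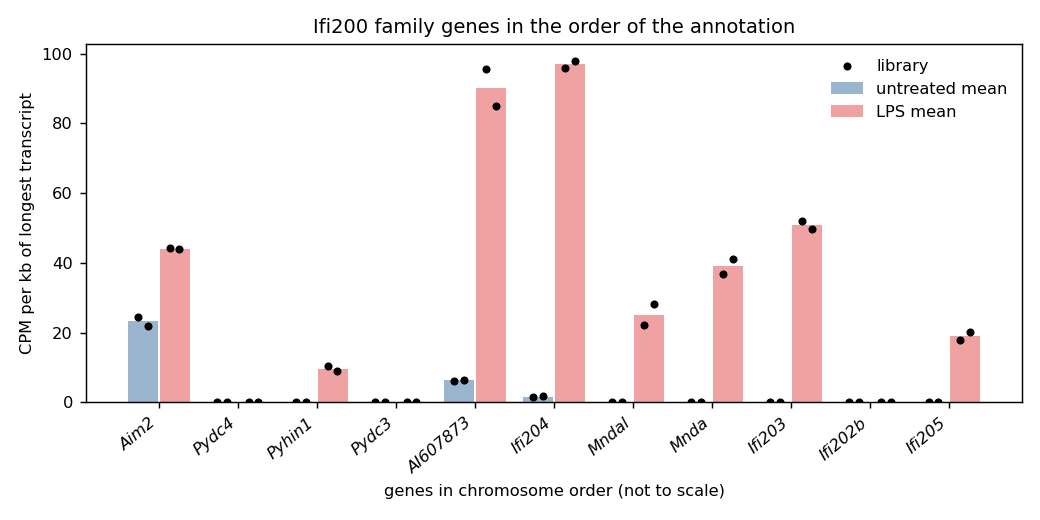
CPM per kilobase of the longest annotated transcript for Ifi200 family genes in their order along the chromosome (spacing not to scale); bars are group means from 0 and points are libraries. After LPS, AI607873 (90.3) and Ifi204 (96.9) are highest, and Pydc4, Pydc3 and Ifi202b stay at or near 0 beside genes that rose.

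Of 20 tested genes proposed elsewhere as nucleic acid sensors, 11 rose and 3 fell (median log2 fold change 0.32), beside 26.6% and 25.3% of all genes tested. Under size-only scaling 5 were higher and 8 lower, so the balance of the list depends on the scaling. Dhx36, one of the 11 and named for this change, turned negative under that scaling and after GC correction (-0.08 and -0.0061 on the log2 scale). Tlr3, the endosomal receptor of double-stranded RNA, had 6 and 4 untreated counts against 102 and 112, a 32.8-fold rise in a gene that also passed the filter only through the LPS libraries. Eif2ak2, the double-stranded RNA-dependent kinase PKR, rose 9.65-fold from 11.3 to 108 CPM. Tlr13, a receptor of bacterial ribosomal RNA, rose 2.39-fold from 132 to 316 CPM. Ddx3x, a helicase gene, rose 1.56-fold from 577 to 900 CPM.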

How the data were processed

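Strand-specific, ribosomal RNA-depleted total RNA libraries were sequenced, per the labels' protocols. STAR 2.5.1, Trimmomatic 0.33, CASAVA 1.8.2 and DESeq2 appear in the submitters' processing notes, with build hg19 although cells and symbols are mouse. No annotation is named there. The deposited files hold the authors' raw read counts per gene, without normalisation, in unstranded, forward-strand and reverse-strand columns. The reverse-strand column was used and summary lines were left out.

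Genes were kept by edgeR's filter (CPM of at least 2.54 in 2 libraries), scaled by TMM and tested with edgeR 4.0.16 (robust quasi-likelihood, two-sided, with treatment alone in the model) under R 4.3.3. The SE was derived as the absolute log2 fold change over sqrt(F). Code was tested on simulated data. The smallest exact permutation p for 2 against 2 libraries is 0.333, so none was run. Within-group chi-square per degree of freedom was 1.52 (untreated) and 2.44 (LPS), so no library was a duplicate of another within counting noise. P-values measure only the spread between these libraries, which may be technical. Members and lists were chosen with earlier results of these data known. Named genes are all members, Spi1 and up to 4 called genes per list by smallest p; others are marked as named after their values were seen or for a change under another setting. Alternatives were RLE, upper quartile and size-only scaling, DESeq2 1.42.0, 2 other filters, unstranded counts, a replicate block, exclusion of 5 abundant entries, GC-corrected offsets and leaving out each library.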

Additional observations from a re-analysis of the deposited data

Results flagged for a closer look

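The opposite-strand column, which no comparison above uses, held 9 reads at Ifi204, all from the LPS libraries (1 and 8 counts) and none from the untreated ones. With no filter beyond 1 count, this difference passed edgeR's test (adjusted p = 0.0433). It rests mainly on LPS replicate 2. On its own strand Ifi204 went from 18 and 19 untreated counts to 636 and 740 after LPS. The part of that rise in the opposite-strand difference was not tested. The share of opposite-strand reads at Ifi204 was 0.633%, below the 1.04% to 1.26% of stranded gene counts of whole libraries. No member had enough opposite-strand reads to pass the expression filter in that column.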

How the results depend on the processing

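Aim2 and Ifi204 kept direction and call under all 14 alternatives, with log2 fold changes of 0.56 to 1.00 for Aim2 and of 5.50 or more for Ifi204. Ddx58, Ifih1, Dhx58, Zbp1 and Ifi205 did so too, but they passed the filter only through LPS, so their kept calls are no support. Scaling by library size alone put the median change over all tested genes at -0.36 on the log2 scale. It gave 1379 genes higher and 4778 lower, with Mavs at -0.64 and Tmem173 at -0.65. It gave lower counts of 5 (RIG-I-like receptor cofactors), 3 (shared relay), 11 (cGAS-STING and clearance), 1 (ZBP1 effectors, 2 higher) and 8 (other sensors, 5 higher). DESeq2 gave 1838 genes higher and 1486 lower, 0 members lower and 2 lower in the cGAS-STING list. Its log2 fold changes were -0.28 for Mavs, 0.87 for Mb21d1 and -0.29 for Tmem173, none of which passed. GC correction gave 0 members lower, 0 lower in the shared relay and 2 lower in the cGAS-STING list, with -0.10 for Mavs and -0.19 for Tmem173. Why these calls were lost was not tested.

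Replicate numbers are shared between groups, but deviations of same-numbered libraries were uncorrelated across 9992 genes (r = -0.0417), so the numbers are not taken as pairs. The replicate block left 1 member lower (Mavs), with Tmem173 at -0.29 (edgeR adjusted p = 0.0517), and changed no other member's call. It called 2658 genes higher and 2513 lower.

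Leaving out 1 library gave 7 to 8 members higher and 0 to 1 lower. Mavs ranged from -0.33 to -0.23, Mb21d1 from 0.41 to 1.23 and Tmem173 from -0.36 to -0.22. Genes lower ranged from 3 (without untreated replicate 1 or LPS replicate 1) to 6 in the cGAS-STING list, 0 (without untreated replicate 2) to 1 in the shared relay and 0 to 1 (without LPS replicate 2) among ZBP1 effectors. Opposite-strand counts called 0 members, or 1 (Ifi204) without the filter. Depth limits Ddx58, Ifih1, Zbp1 and Ifi205, whose untreated libraries held 0 or 1 reads. Floors and intervals cover counting error only.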
